A study of Mus musculus with 20 samples.

Results

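Hepatocytes are the main cells through which the body regulates its iron. They secrete hepcidin, the peptide hormone encoded by Hamp, which binds the iron exporter ferroportin on gut, macrophage and liver cells and causes its breakdown, so that less iron enters the blood. Hepcidin synthesis is driven by bone morphogenetic protein (BMP) signalling through SMAD factors, tuned by the transferrin sensors Hfe and Tfr2, and by interleukin 6 through STAT3. Hepatocytes also take up transferrin-bound iron, make transferrin itself and store iron inside ferritin shells, which the cargo receptor Ncoa4 delivers to lysosomes when iron is needed.

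Described here is H3K27ac, the acetylation of lysine 27 on histone H3 that accompanies active enhancers and promoters, at 10 genes of this system. They were chosen by name for their roles, and no measured value enters the rule, but earlier results of these data were known. Hamp, Hfe, Tfr2 and Id1 stand for the hormone and its signalling, Tfrc and Trf for uptake, and Slc40a1 for export. Fth1, Ftl1 and Ncoa4 stand for storage and release. For each gene, the window was its RefSeq span extended by 5 kb on both sides on mm10, and every region called in a library that overlapped the window was counted. The 10 genes are a part of 21883 protein-coding gene windows. All 10 had a called region in every library and so belonged to the 9700 windows that could be tested.

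Chromatin came from isolated hepatocytes of 5 old samples (23 months, strain C57BL/6J) and 5 young samples (5 months, strain C57BL/6N), each profiled with 1 H3K27ac library. No other genotype, allele or treatment is given in the labels, and both ages shared the same perfusion, antibody and 5% human chromatin added as a spike-in. Age and substrain coincide and cannot be told apart. Whether the libraries came from different mice is not stated, so the spread that enters each p-value may be technical in part. The other 10 of the 20 samples in the series are inputs, which entered only through the input tags listed beside each region.

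Libraries held 6295930 to 15544145 tags and 21213 to 30195 regions. The share of tags inside regions, the IP efficiency, was 24.53% to 35.84% in old and 34.63% to 48.23% in young libraries. Old replicate 5 was the shallowest, with the lowest IP efficiency, and young replicate 5 was the deepest, with an estimated fragment length of 620 bp against 414 to 444 bp in the other libraries. Hepatocyte markers fitted the label: all 8 of the list were called in all 10 libraries, with summed scaled tags of 3946 to 6555 in old and 7290 to 9815 in young libraries. Of the Kupffer cell markers 6 of 7 had no call anywhere, including Clec4f and Adgre1, and the list summed to 0 in old and to 0 to 12.5 in young libraries. All 6 lymphocyte markers were at 0. Of the stellate cell markers 5 of 6 were at 0 and the list summed to 44.5 to 103 in old and 0 to 144 in young libraries, all of it from Reln. Of the cholangiocyte markers 4 of 6 were at 0 and the list summed to 222 to 520.1 in old and 253 to 580.4 in young libraries, led by Sox9, which was called in all 10. The erythroid list summed to 138 to 322 in old and 176 to 377 in young libraries, led by Klf1, with the beta-globin genes Hbb-bs and Hbb-bt at 0. The endothelial list summed to 138 to 506 in old and 293 to 419.5 in young libraries, led by Stab2.

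Signal was measured as scaled tags, the tags of a region scaled to 10000000 per library, summed over a window. Before testing, each library was centred on its median window, because without centring the median of all windows differed by −0.34 (log2, old minus young) and 86.4% of windows had a negative difference. A log2 difference below is therefore relative to the median window unless stated. The test was limma on log2 of tags plus 1 with Benjamini-Hochberg adjustment over the 9700 windows. It called 21 windows at an adjusted p under 0.05, 12 higher and 9 lower in old hepatocytes, which is 0.216% of those tested.

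None of the 10 iron genes was among the 21. Only Ncoa4 had an unadjusted p under 0.05, a level that 1327 of all windows reached. The median log2 difference of the 10 genes was 0.05, against 0.0028 over all windows, and 4 of the 10 were negative. Without centring 9 of the 10 were negative, with a median of −0.29. In bulk chromatin, acetylation in fewer cells and less acetylation per cell cannot be told apart.

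**Figure D1:**
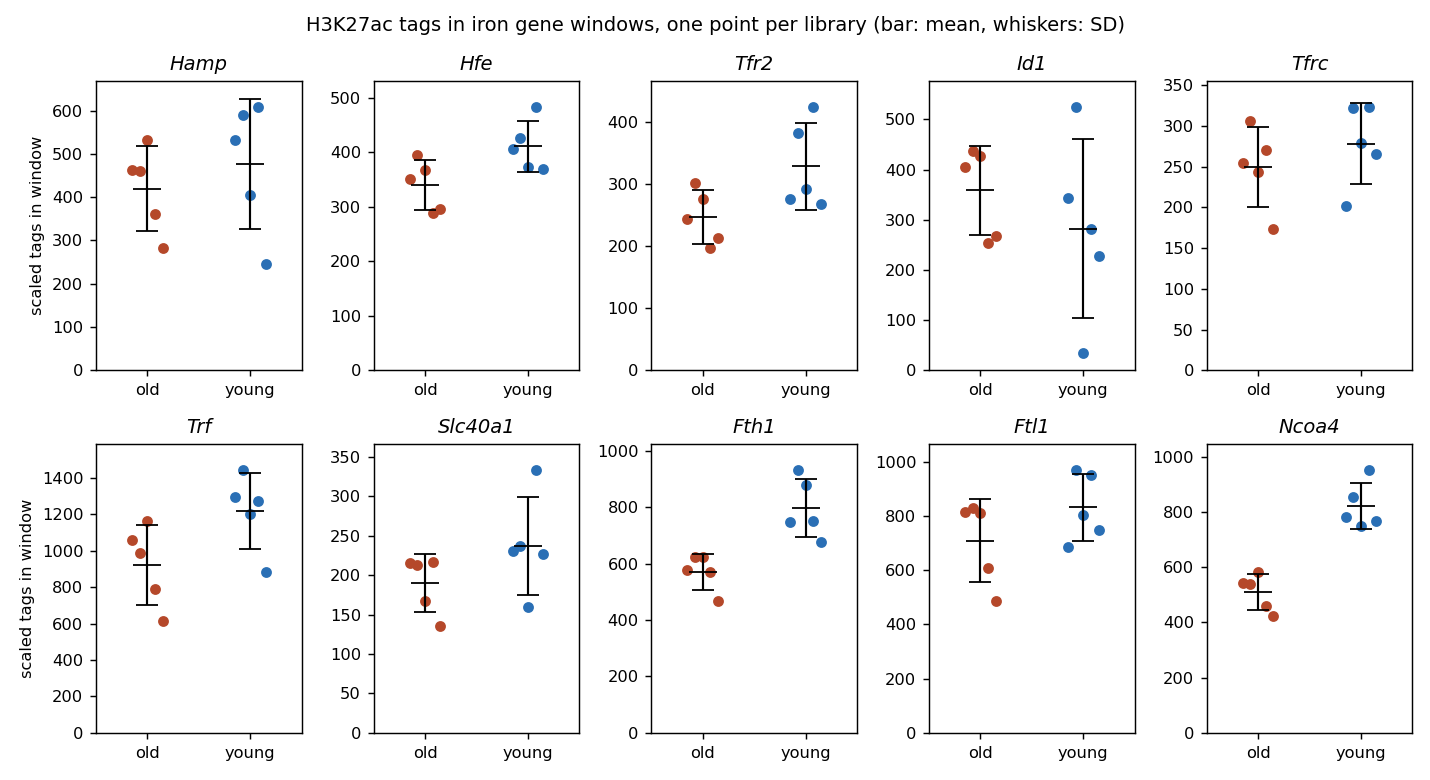
Scaled H3K27ac tags summed over the window of each gene, 1 point per library, with old libraries on the left and young libraries on the right of each panel; black bars and whiskers give mean and SD (n = 5 each). The old and young points are apart at Fth1 and Ncoa4 and overlap at the other 8 genes.

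Set per length, the 10 windows covered a range of signal densities. Over all 10 libraries, tags per kb of called length averaged 122 ± 16.6 at Ftl1, 99.7 ± 23.5 at Tfrc, 96.0 ± 19.8 at Trf, 91.6 ± 18.0 at Ncoa4 and 90.9 ± 16.8 at Hfe (SD, n = 10). Lower densities were found at Tfr2 (77.2 ± 19.2), Fth1 (77.1 ± 12.1), Hamp (66.4 ± 12.4), Slc40a1 (56.3 ± 9.24) and Id1 (50.9 ± 10.2). Each neighbouring pair in this order differed by less than the larger of their SDs. Ftl1 lay at percentile 83.9 of the tested windows and Id1 at percentile 13.2. Input tags per kb in the same regions were far lower, with group means between 5.98 and 10.4 in old and between 5.18 and 11.8 in young libraries.

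Promoter sequences give the setting of these regions. RefSeq promoter windows on GRCm38.p6, which mm10 represents, run from 250 bases before to 50 bases after a start site and were found for 7 of the 10 genes, 13 windows in all. They were searched on both strands for GGCGCC, the GC box through which SMAD factors act on the hepcidin gene, TTCNNNGAA, bound by STAT factors, TGACNNNGC, the core of the antioxidant response element, and CACGTG, an E-box. These occur in 11.9%, 8.30%, 12.4% and 7.15% of all 32851 promoter windows. The Hamp promoter (chr7:30943980-30944279, minus strand) is shown because it holds both motifs of the signals that drive hepcidin, GGCGCC beginning 109 bases and TTCTTGGAA beginning 97 bases upstream of the start site, in capitals:

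Hamp: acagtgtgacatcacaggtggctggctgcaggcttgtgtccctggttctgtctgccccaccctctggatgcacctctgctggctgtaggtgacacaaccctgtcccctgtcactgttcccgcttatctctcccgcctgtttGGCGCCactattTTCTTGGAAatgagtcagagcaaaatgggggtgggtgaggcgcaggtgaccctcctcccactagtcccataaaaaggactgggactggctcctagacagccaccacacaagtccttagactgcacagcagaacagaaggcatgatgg

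A match describes letters and not a bound site. A called region spanned this whole promoter in all 5 old and all 5 young libraries, at 7.11 to 10.1 times the input in old and 6.50 to 13.2 times in young hepatocytes by the authors' values.

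Hamp (chromosome 7, 30942368 to 30944029) held 463, 460.5, 533, 361 and 283 scaled tags in old replicates 1 to 5. In young replicates 1 to 5 it held 533, 591, 406, 608 and 246. The groups overlapped throughout, and the lowest library of each age was replicate 5. The means were 420.0 ± 98.1 in old and 477 ± 151 in young hepatocytes (SD, n = 5 each), and the centred log2 difference was 0.20 ± 0.19 (SE, limma adjusted p = 0.67). Without young replicate 5 it was 0.02 and without young replicate 1 it was 0.32. Without both replicates numbered 5, an alternative chosen after seeing the data, it was 0.07. It was 0.40 with IP efficiency as a covariate, 0.30 with regions in proportion to their share in the window and −0.14 without centring.

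Tags per kb at Hamp were 68.6 ± 9.45 in old and 64.2 ± 15.6 in young libraries, a centred log2 difference of 0.30 ± 0.13 (SE, unadjusted p = 0.030, limma adjusted p = 0.41). On tags per kb, 1031 of the 9700 windows and 2 of the 10 genes, Hamp and Tfrc, had an unadjusted limma p under 0.05. The called length averaged 6178 ± 1416 bp in old and 7410 ± 1735 bp in young libraries. All Hamp tags lay in 1 merged region that also reaches Usf2 and Lsr, so the window is not specific to Hamp. Hamp also has a near-identical copy, Hamp2, and the sources used here do not give how reads shared by such copies were placed. The windows whose centred tags followed those of Hamp most closely over the 10 libraries, among windows that share no region with it, were Dhrs9 (Pearson r = 0.90), Scd1 (0.89) and Zfp953 (0.87). These points share library, depth and scaling, and the values are a description over n = 10. The named windows were picked as the highest of the 9700 tested, less those sharing a region with Hamp. A search of that size can give such values by chance.

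**Figure D2:**
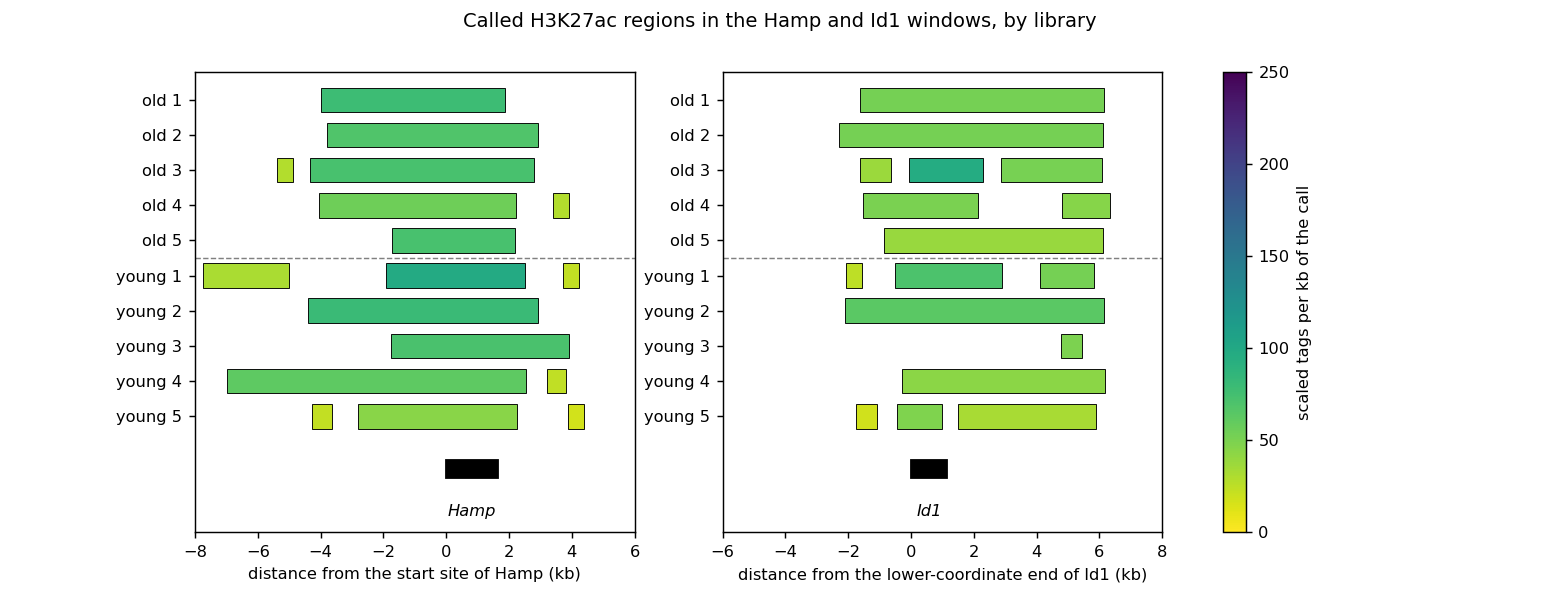
Regions called in each library, old above young, at Hamp (distance from its start site in kb, transcription to the right) and Id1 (distance from the end with the lower coordinate in kb), shaded by scaled tags per kb of each call; black bars mark the genes. Hamp was covered in all 10 libraries, whereas young replicate 3 had no call on Id1 itself and a single short call beyond it.

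Hfe (chromosome 13, 23702034 to 23710854), an MHC class I-like protein that raises hepcidin expression in response to iron-loaded transferrin, held 352, 395, 367, 289 and 295 tags in old libraries. Young libraries held 406, 427, 373, 483 and 369. Old replicate 2 lay inside the young range and the other 4 old libraries below it. Means were 339.8 ± 46.2 in old and 412 ± 46.5 in young hepatocytes, and the centred log2 difference was 0.06 ± 0.10 (SE, limma adjusted p = 0.81). A weaker region of the window lay at the histone genes H1f6 and H4c3, at least 11343 bp downstream of the Hfe start, and was called in 5 old and 4 young libraries.

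Tfr2 (chromosome 5, 137569822 to 137588081), transferrin receptor 2, the hepatocyte sensor of iron-loaded transferrin, held 245, 302, 277, 198 and 213 tags in old libraries and 277, 383, 293, 424 and 268 in young libraries. Old replicates 2 and 3 lay inside the young range and the other 3 below it. The centred log2 difference was −0.06 ± 0.11 (SE, limma adjusted p = 0.82). Its strongest region lay at the start of the gene and within 1 kb of the neighbour Actl6b. That region held 198 to 210 tags in old libraries, against 208 to 356 in young libraries. The ranges overlapped narrowly, and the centred log2 difference of the region was −0.11 ± 0.12 (SE, limma adjusted p = 0.70). A second region inside Tfr2, 9053 to 11565 bp from the first start site, was called in 4 old and 5 young libraries.

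Id1 (chromosome 2, 152736251 to 152737410) encodes an inhibitor of DNA binding and is a direct target of the BMP and SMAD signals that also drive hepcidin. It held 405, 437, 427.5, 254.5 and 268 tags in old libraries. The young libraries held 344, 524, 33.4, 282 and 228. All 5 old libraries lay inside the young range, which ran down to 33.4 in young replicate 3. In that library the only call was 682 bp long and lay 3608 bp beyond the gene, and Id1 itself was covered in 5 old and 4 young libraries.

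The centred log2 difference at Id1 was 1.08 ± 0.54 (SE, limma adjusted p = 0.40), the highest value among the 10 genes, and 0.47 without young replicate 3 (adjusted p = 0.40). Means were 358 ± 89.5 tags in old and 282 ± 178 in young hepatocytes. Tags per kb differed by 0.22 (adjusted p = 0.63), and the called length was 6984 ± 1243 bp in old and 5502 ± 2855 bp in young libraries. A missing call shows that a region did not pass the calling threshold, not that it had no signal.

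Tfrc (chromosome 16, 32608896 to 32632794), transferrin receptor 1, through which cells take in transferrin-bound iron, had 1 region around its start in every library. Its first promoter window (chr16:32608646-32608945, plus strand) is shown because that region covered it in all 10 libraries, and it holds GGCGCC beginning 89 bases before the start site, in capitals:

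Tfrc: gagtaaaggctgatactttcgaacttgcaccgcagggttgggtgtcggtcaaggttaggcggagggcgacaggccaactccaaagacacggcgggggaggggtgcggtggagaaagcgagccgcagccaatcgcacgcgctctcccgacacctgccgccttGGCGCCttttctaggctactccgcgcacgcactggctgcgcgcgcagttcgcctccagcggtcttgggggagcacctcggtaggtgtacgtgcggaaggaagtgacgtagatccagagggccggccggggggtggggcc

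Tfrc held 254, 307, 244, 269.9 and 173 tags in old libraries and 202, 322.5, 279, 323 and 265 in young libraries. The ages overlapped, and the centred log2 difference was 0.18 ± 0.12 (SE, limma adjusted p = 0.54). The region was 2873, 3442, 2915, 3388 and 2542 bp long in old libraries and 2096, 2242, 2150, 2855 and 2530 bp long in young libraries. Each old library exceeded at least 4 of the 5 young ones, and young replicate 4, at 2855 bp, exceeded old replicate 5 alone.

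The called length at Tfrc averaged 3032 ± 379 bp in old and 2375 ± 316 bp in young hepatocytes, a centred log2 difference of 0.51 ± 0.13 (SE, unadjusted p = 0.0018, limma adjusted p = 0.18). This test of length called 1 of 9700 windows, 0.0103%, and none of the 10 genes, while 948 windows and 2 of the 10 genes, Tfrc and Ncoa4, had an unadjusted p under 0.05. Tags per kb were 88.4, 89.1, 83.7, 79.7 and 68.1 in old and 96.4, 144, 130, 113 and 105 in young libraries. Every old library lay below every young one, a pattern found in 1.4% of all windows. The centred log2 difference per kb was −0.33 ± 0.12 (SE, unadjusted p = 0.014, limma adjusted p = 0.35). Tags per kb are the summed tags divided by the called length, so this value follows from those of tags and length. It is not a separate observation. Input tags per kb in the region were 7.03 ± 1.46 in old and 11.8 ± 6.81 in young libraries, and the part of these in the result was not tested.

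Trf (chromosome 9, 103208876 to 103230286) encodes transferrin, the iron carrier of plasma, which hepatocytes secrete. Its window held 1057, 988, 1163, 792 and 614 tags in old libraries and 1297, 1443, 1203, 1272 and 881 in young libraries. Young replicate 5 lay inside the old range and the other 4 young libraries above it. The means were 923 ± 219 in old and 1219 ± 208 in young hepatocytes, and the centred log2 difference was −0.08 ± 0.14 (SE, limma adjusted p = 0.83). A single merged region of 11421 bp at one end of the gene carried 98.0% of these tags. Its mean called length was 9943 ± 930.5 bp in old and 10475 ± 632 bp in young libraries. Each of the other 6 merged regions of the window was called in at most 6 libraries.

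Slc40a1 (chromosome 1, 45908070 to 45926532) encodes ferroportin, the iron exporter on which hepcidin acts. It held 216, 213, 167, 216 and 136 tags in old libraries and 230.4, 237, 159, 333 and 227 in young libraries. Young replicate 3 lay within the old range and the other 4 young libraries above it. The centred log2 difference was 0.03 ± 0.17 (SE, limma adjusted p = 0.94). The stronger of its regions, at the end with the higher coordinate, carried 86.7% of the tags, and a weaker one beyond the other end was called in 4 old and 5 young libraries.

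**Figure D3:**
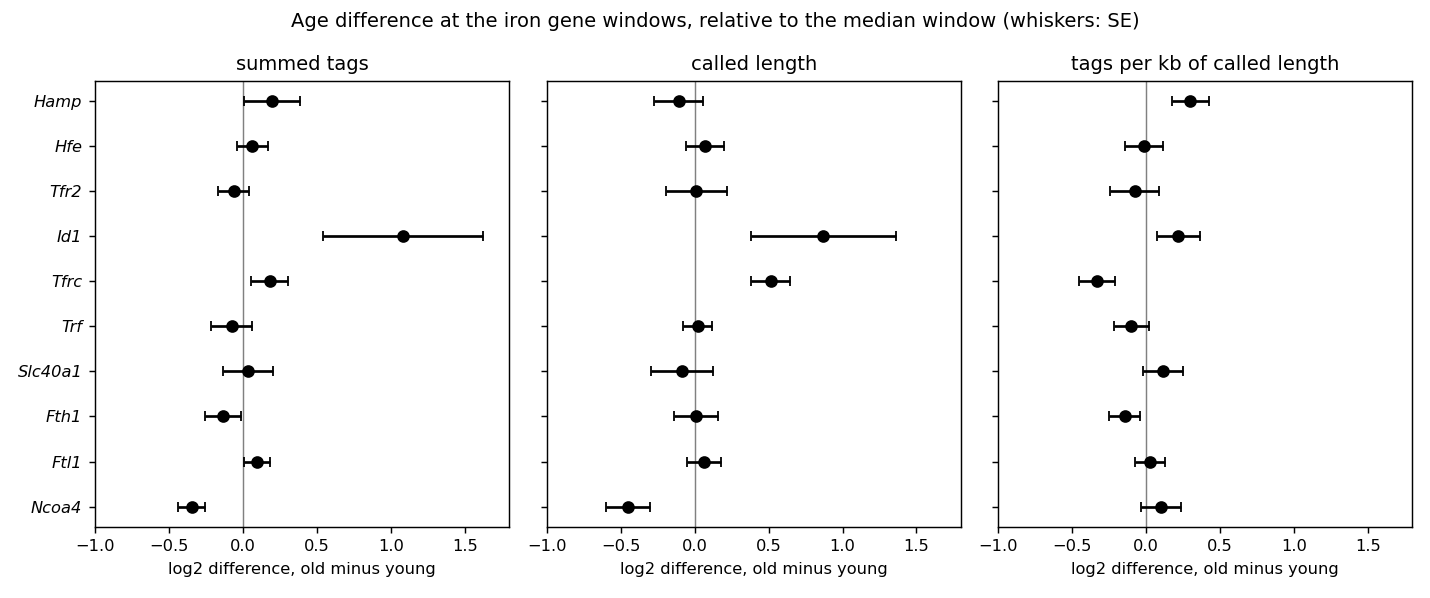
Centred log2 difference, old minus young, of summed tags (left), called length (middle) and tags per kb of called length (right) at the 10 genes, with whiskers of 1 SE from limma (n = 5 old and 5 young libraries). Tags and length are negative at Ncoa4, at −0.35 and −0.45, and at Tfrc length and tags per kb go opposite ways, at 0.51 and −0.33. Tags per kb are tags divided by length, so the right panel follows from the other panels.

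Fth1 (chromosome 19, 9980600 to 9985111) encodes the ferritin heavy chain, the subunit that oxidises iron for storage. RefSeq gives it more than one start site. The upstream promoter window was not spanned by a call in any library, while the downstream one (chr19:9982396-9982695, plus strand) was spanned in all 10 and is shown as the sequence under the region of interest at this gene. None of the 4 motifs occurs in it, so it has no capitals:

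Fth1: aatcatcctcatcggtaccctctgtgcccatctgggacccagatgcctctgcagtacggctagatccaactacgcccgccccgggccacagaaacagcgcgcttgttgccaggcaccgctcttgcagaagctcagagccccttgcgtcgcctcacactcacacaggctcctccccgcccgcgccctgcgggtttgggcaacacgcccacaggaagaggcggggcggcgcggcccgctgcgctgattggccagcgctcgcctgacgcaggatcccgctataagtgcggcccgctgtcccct

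Fth1 held 575.5, 624, 622, 569 and 467 scaled tags in old libraries. In young libraries it held 748, 931, 876.5, 751 and 676. Every old library lay below every young one before centring, which was the case in 9.24% of all windows, and the ages overlapped after centring. Means were 571 ± 63.7 in old and 797 ± 104 in young hepatocytes, and the centred log2 difference was −0.13 ± 0.12 (SE, limma adjusted p = 0.64). With IP efficiency as a covariate it was −0.30 (adjusted p = 0.40). The summed hepatocyte markers also lay lower in every old library than in any young one, and their part in this separation was not tested.

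The window of Fth1 divided into a pair of regions. The region upstream of the gene (9974190 to 9980013) held 261, 289, 289.9, 229 and 225 tags in old and 318, 354, 348, 287.5 and 256 in young libraries, with overlap, and differed by 0.03 ± 0.13 after centring (SE, limma adjusted p = 0.94). The region over the gene (9981151 to 9985854), which ends within 1 kb of Best1, held 315, 335, 332, 339.8 and 242 tags in old and 430.3, 578, 528.5, 463 and 420.4 in young libraries. Those values did not overlap, as in 8.3% of the regions called in every library, and the centred log2 difference was −0.33 ± 0.12 (SE, limma adjusted p = 0.17). Without centring it was −0.63 with an adjusted p of 0.038, in a fit that called 5.78% of the regions present in all libraries. The test of the difference between the 2 regions was not made.

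Ftl1 (chromosome 7, 45457944 to 45459886), the ferritin light chain, which helps form the iron core, held 813.5, 828, 809, 609 and 487 tags in old libraries. Young libraries held 685, 969, 804, 950.4 and 749.5. Old replicates 1 to 3 lay inside the young range and old replicates 4 and 5 below it. The centred log2 difference was 0.10 ± 0.09 (SE, limma adjusted p = 0.65). Nearly all the signal, 99.4%, sat in 1 region across the start of the gene that also reaches Bax and Gys1. Both ferritin genes have many processed copies in the genome, and the placing of reads shared with them is likewise not stated.

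Ncoa4 (chromosome 14, 32159879 to 32179855), the receptor that takes ferritin to the lysosome so that its iron is released, was the only one of the 10 genes whose ages were apart both before and after centring. Its first listed promoter (chr14:32159637-32159936, plus strand) lay under the strongest call of the window in every library, and none of the 4 motifs occurs in it. A later one (chr14:32165539-32165838, plus strand) was spanned by a call in 5 old and 3 young libraries and is shown for comparison. It holds TGACCTGGC, a match to the antioxidant response core, beginning 44 bases before its start site, in capitals:

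Ncoa4 first start: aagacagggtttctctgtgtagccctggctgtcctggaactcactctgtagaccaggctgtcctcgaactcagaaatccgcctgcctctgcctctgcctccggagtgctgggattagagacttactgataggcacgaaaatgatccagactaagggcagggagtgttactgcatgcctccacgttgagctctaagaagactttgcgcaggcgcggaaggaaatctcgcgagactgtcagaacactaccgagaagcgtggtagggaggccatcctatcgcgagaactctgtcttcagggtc
Ncoa4 later start: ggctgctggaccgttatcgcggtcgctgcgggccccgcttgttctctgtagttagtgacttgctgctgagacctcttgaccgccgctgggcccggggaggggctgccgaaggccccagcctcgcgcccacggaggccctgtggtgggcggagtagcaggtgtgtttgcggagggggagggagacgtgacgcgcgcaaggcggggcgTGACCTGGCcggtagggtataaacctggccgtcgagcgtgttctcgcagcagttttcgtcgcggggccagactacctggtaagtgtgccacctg

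The Ncoa4 window held 544, 541, 583.5, 459 and 425 scaled tags in old libraries. In young libraries it held 782, 853, 748.5, 952 and 768.5. Every old library lay below every young one, with a gap between 583.5 and 748.5. The separation held after centring, a pattern found in 1.89% of all windows, against 9.24% before centring. Mean tags were 510.3 ± 65.9 in old and 821 ± 83.1 in young hepatocytes, a ratio of 0.622 before centring.

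The centred log2 difference at Ncoa4 was −0.35 ± 0.09 (SE, unadjusted p = 0.0025, limma adjusted p = 0.14), a fold of 0.786, which did not pass the threshold. It passed with DESeq2 (−0.34, adjusted p = 0.0070), which called 3.07% of all windows, and without centring (−0.69, limma adjusted p = 0.047), where 0.897% were called. With IP efficiency as a covariate it was −0.47 (adjusted p = 0.20), and without both replicates numbered 5 it was −0.35 (adjusted p = 0.29). Leaving out any 1 library gave −0.40 to −0.30, with adjusted p between 0.12 and 0.30. On tags per kb of the whole called length the difference turned round to 0.10 (adjusted p = 0.85). Summed tags of every listed hepatocyte marker were also lower in old hepatocytes after centring, and none passed (limma adjusted p 0.081 to 0.77). The centred difference was larger in size than at Ncoa4 at Alb (−0.42), Hnf4a (−0.46), Tat (−0.48), Serpina1c (−0.54) and Cps1 (−1.02). It was smaller at Apob (−0.32), Apoa1 (−0.21) and Ttr (−0.13). The part of such a shift in the Ncoa4 result was not tested.

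The calls behind this window show where the tags lay. At the first start site, 5 old and 4 young libraries had a call that did not reach the next listed start, 5699 bases further on. These first calls held 332 to 464 tags in old and 588 to 698 in young libraries, or 112 to 136 tags per kb in old and 165 to 219 in young libraries. In young replicate 5 a single call of 9952 bp covered both starts, with 700.3 tags or 70.4 tags per kb, a density below that of every old first call. A separate call over the next start was present in 5 old and 3 young libraries, with 89.9 to 119.5 tags in old and 102 to 183 in young libraries, or 30.9 to 52.7 tags per kb in old and 39.6 to 55.1 in young libraries, and these ranges overlapped. In young replicate 1 no call reached that start, and its nearest call, with 62.8 tags or 32.9 tags per kb, ended just short of it. Those tags lay below every old value and are outside the ranges given. These ranges were read from the calls after the window's result was known and carry no test.

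**Figure D4:**
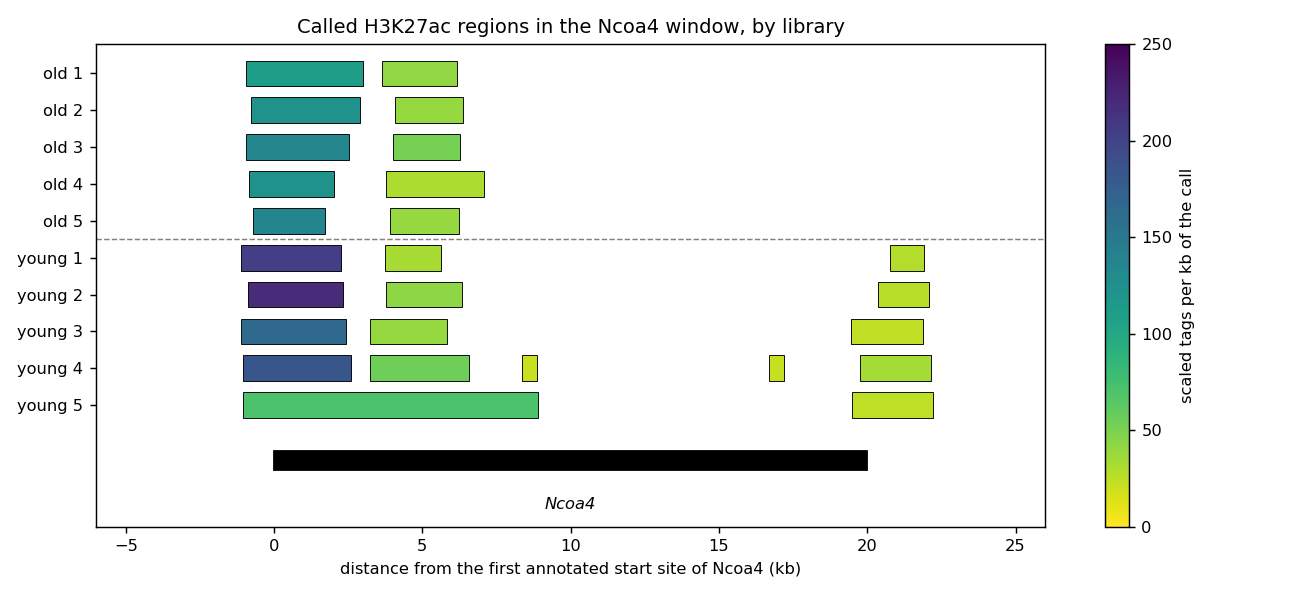
Regions called at Ncoa4 in each library, old above young, by distance from the first annotated start site in kb (transcription to the right), shaded by scaled tags per kb of each call; the black bar is the gene. The first call was denser in young replicates 1 to 4 (165 to 219 tags per kb) than in any old library (112 to 136), young replicate 5 had 1 long call of 70.4 tags per kb, and a call near the far end of the gene was made in 0 old and 5 young libraries.

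The merged region that holds both starts (32158748 to 32168766), which also comes within 1 kb of Msmb, averaged 510.3 ± 65.9 tags in old and 761 ± 71.7 in young libraries. Its centred log2 difference was −0.29 ± 0.08 (SE, limma adjusted p = 0.11). With DESeq2, which called 4.93% of such regions, it was −0.27 (adjusted p = 0.026), and without centring −0.58 (limma adjusted p = 0.035). The region at the far end of Ncoa4, which is also within 1 kb of Timm23, was called in 0 old and 5 young libraries, with 32.3, 46.6, 57.9, 80.7 and 68.2 tags in young replicates 1 to 5. That pattern was seen in 0.167% of all consensus regions. Its two-sided Fisher exact p was 0.0079, the smallest that 5 against 5 libraries allow, and 1 after adjustment over all 31747 consensus regions.

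By number, the Ncoa4 window had 2 calls in each old library and 3, 3, 3, 5 and 2 in the young libraries. The mean difference of −1.2 calls had an exact two-sided permutation p of 0.048, and 1 after adjustment over 13921 windows. No window passed in this test, and 261 had an unadjusted p under 0.05. Called length was 5819 ± 645 bp in old and 9100 ± 2483 bp in young libraries (−0.45 ± 0.15, SE, limma adjusted p = 0.33).

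Across the 10 windows there were 27 merged regions, 11 of them called in all 10 libraries and 7 in only 1. None of the 11 passed the test, which called 1.07% of the 12550 regions called in every library. A single merged region made up the whole signal at Hamp, Id1 and Tfrc.

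Genes around the 10 in the same pathway were counted from lists of known members. Of 23 genes of hepcidin and BMP signalling, 20 could be tested, 0 were higher and 1 was lower in old hepatocytes, against 0.216% of all windows called, with a median log2 difference of −0.06. The gene that passed was Il6ra, the receptor subunit for interleukin 6, whose signal raises hepcidin through STAT3. It fell to 390.4 ± 116 tags in old hepatocytes, against 866 ± 171 in young hepatocytes, a centred log2 difference of −0.83 ± 0.14 (SE, limma adjusted p = 0.036), and every old library lay below every young one, as in 9.24% of all windows. The call was lost without any 1 of 8 of the 10 libraries (adjusted p 0.062 to 0.11; 0.019 without old replicate 1 and 0.040 without young replicate 1) and with IP efficiency as a covariate (−0.75, adjusted p = 0.23), and on tags per kb the difference was 0.06. Centred differences at the listed hepatocyte markers were all negative, from −1.02 at Cps1 to −0.13 at Ttr, and none passed. The part of such a shift at Il6ra was not tested. Smad9, a SMAD factor activated by BMP receptors, differed by −0.71 (adjusted p = 0.41). That value was −0.12 with a 2 kb extension, −0.15 with regions not shared with another gene, −0.20 with regions in proportion to their share in the window and −0.23 with the covariate. Smad6, an inhibitor of BMP signalling that is itself induced by it, differed by 0.56 (adjusted p = 0.35), and by 0.35 without young replicate 3. Bmp6 and Erfe, which encodes the erythroid hormone that lowers hepcidin, had no call in any library.

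Of 22 genes of iron and haem transport, 13 were tested and none passed in either direction (0.216% of all windows did), with a median of 0.05. The largest differences were at Hmox1, the haem-degrading oxygenase (0.56, limma adjusted p = 0.71; −0.13 without young replicate 3), Steap4 (0.45, adjusted p = 0.52) and Steap3 (0.44, adjusted p = 0.51), which belong to a family of metalloreductases. Without young replicate 1 these were 0.73 at Steap4 and 0.21 at Steap3. Of 13 genes of iron storage and sensing, 10 were tested and none passed, with a median of −0.0018. Aco1, which as iron regulatory protein controls the mRNAs of ferritin and transferrin receptor, held 581 ± 173 tags in old and 951 ± 224 in young hepatocytes (−0.39, limma adjusted p = 0.31; −0.24 without old replicate 4). Bdh2 differed by −0.34 (adjusted p = 0.56), by −0.22 without old replicate 4 and by −0.20 without young replicate 1. Cisd1, a mitochondrial iron-sulphur protein, differed by 0.25 (adjusted p = 0.34).

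Of 24 genes of mitochondrial iron use, 20 were tested and none passed (0.216% of all windows did), with 16 positive and 4 negative differences and a median of 0.13. Over all windows 49.6% of centred differences were negative. The other lists, in the order above, had 8, 7 and 5 positive and 12, 6 and 5 negative differences. Alas1, the rate-limiting enzyme of haem synthesis in liver, held 500.2 ± 140 tags in old and 976 ± 255 in young hepatocytes (−0.63 ± 0.13, SE, limma adjusted p = 0.059). Its ages did not overlap, as in 9.24% of all windows. The listed hepatocyte markers were also lower in old hepatocytes after centring, and the part of such a shift at Alas1 was not tested. DESeq2, which called 3.07% of windows, gave an adjusted p of 0.0013, the fit with the covariate −0.48 with an adjusted p of 0.33, and tags per kb −0.10. Abcb10, a mitochondrial transporter, differed by 0.61 (adjusted p = 0.46), by 0.32 without young replicate 3 and by 0.40 without young replicate 1, and Isca2, an iron-sulphur cluster assembly factor, by 0.40 (adjusted p = 0.26).

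**Figure D5:**
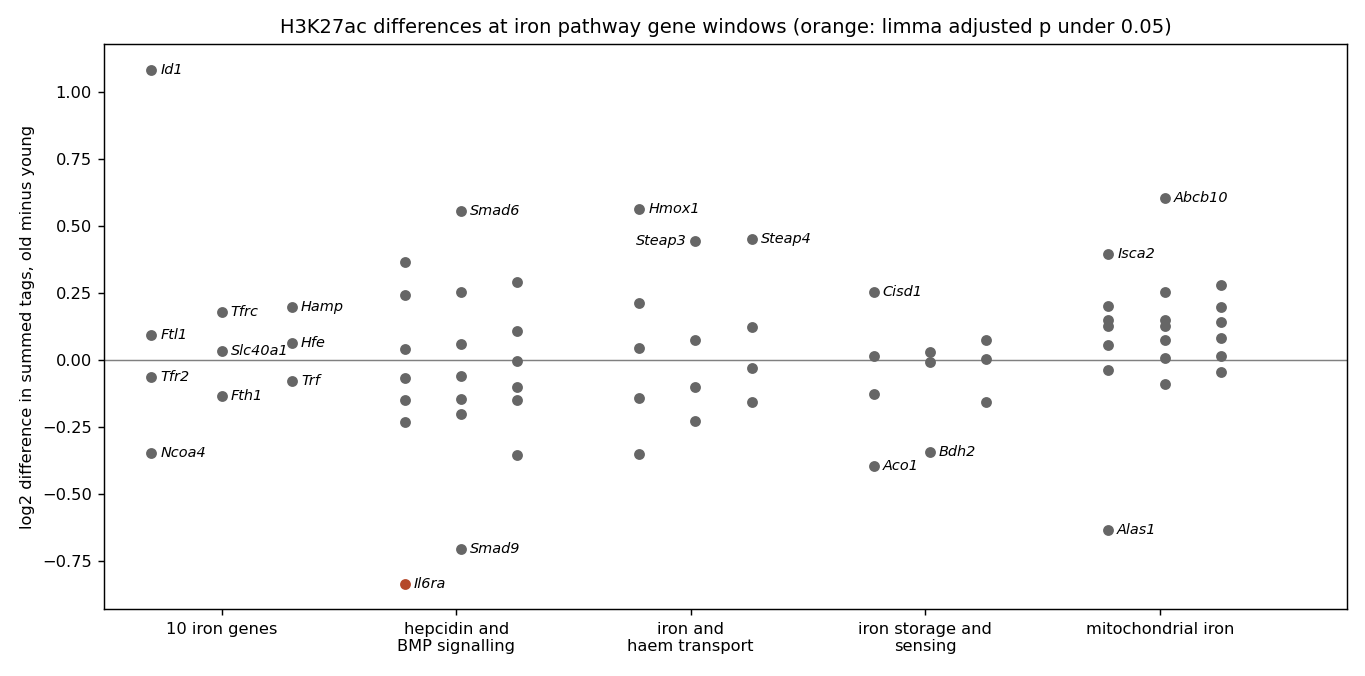
Centred log2 difference in summed tags, old minus young, for the 10 iron genes and for the tested genes of the 4 pathway lists, 1 point per gene, with orange for a limma adjusted p under 0.05. Il6ra at −0.83 is the orange point, and the medians of the lists lie between −0.06 and 0.13.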

How the data were processed

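H3K27ac regions of 5 old and 5 young hepatocyte libraries were analysed. HOMER, run in histone mode by the authors per the file headers, gave the regions of each library against its input, joining 500 bp peaks, at 4-fold over input and over the surrounding 10000 bp and a Poisson p of 1e-04. Coordinates are on mm10 (submitters' processing notes); the sources used here do not give the aligner. The deposited signal of a region is its tags scaled by the authors to 10000000 per library, and the input signal was scaled by the authors to the matched library. The unscaled tags, deposited in steps of 0.5, were treated as estimated counts and rounded to whole numbers for edgeR and DESeq2. The fold over input is the authors' ratio, and the deposited score was not tested. The deposited region length is in bp, an other unit. Values scaled to the spike-in were not analysed here.

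Windows, called length and regions merged across libraries at an overlap of at least 1 bp (46767, of which 31747 were called in at least 2 libraries) were fitted with limma 3.58.1 (R 4.3.3, mean-dependent prior), after centring, with a pseudocount of 1. Windows and regions needed a call in all 10 libraries. Calls were compared by exact permutation tests over 252 assignments, with a smallest possible p of 0.0079. Alternatives included edgeR 4.0.16 and DESeq2 1.42.0. Scripts were tested on simulated data, which for the limma fit of windows had a fixed dispersion and no difference in IP efficiency between libraries. Python 3.11.15, numpy 2.4.6, pandas 2.3.3, scipy 1.17.1 and matplotlib 3.10.9 were used. Total tags of 6295930 to 15544145 set the precision, and weak regions lie near the calling threshold. The genes, lists and motifs were chosen with earlier results of these data known. Named genes were all 10 genes, regions called in at least 5 libraries of either age, and from each pathway list those past the threshold and the 3 largest differences. Where one region reached several genes, its tags counted for each.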

Additional observations from a re-analysis of the deposited data

Results flagged for a closer look

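Among 60 groups of 5 libraries examined at the 10 genes, 3 held a library far from the other 4, and chance flags about 1 group in 20. The called length at Trf was 8400 bp in old replicate 5, and the nearest of the other old libraries had 10764 bp. At Ftl1 it was 4464 bp in old replicate 5, with the nearest at 6255 bp. At Slc40a1 it was 2333 bp in young replicate 3, with the nearest at 4411 bp. Old replicate 5 also had the fewest tags and the fewest regions of all libraries.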

How the results depend on the processing

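No alternative brought the whole window of any of the 10 genes past the threshold except Ncoa4 with no centring and with DESeq2. Of their regions fitted under the alternatives, the one over Fth1 passed with no centring (−0.63) and the one at the Ncoa4 starts with no centring (−0.58) and DESeq2 (−0.27). Counts of windows passing, 21 in the main test, were 9 on tags per kb, 87 with no centring (2 higher, 85 lower), 56 with cyclic loess, 1 with calls in at least 5 libraries, 8 at 8-fold over input, 47 with edgeR, 298 with DESeq2, 0 with IP efficiency as a covariate, 32 with regions in proportion, 56 with unshared regions only, 8 without both replicates numbered 5, and 2 to 63 with 1 library left out. For consensus regions, 134 in the main test, they were 40 on tags per kb, 725 with no centring, 57 with calls in at least 5 libraries, 39 at 8-fold over input, 619 with DESeq2, 0 with the covariate, and 30 to 246 with 1 library left out. Fisher's test of calls passed 0 of 31747 regions (390 at an unadjusted p under 0.05), and 0 with each library left out, an alternative added after seeing the data. For length, 1 in the main test, the counts were 0 with no centring and 0 to 7 with 1 library left out. Whether replicate numbers pair the libraries could not be settled. Correlations of same-numbered deviations ran from −0.06 to 0.18 and number 3 alone matched itself best, but 5 correlations are too few to show or exclude a pairing. With the replicate number as a block, 4 windows, 74 consensus regions and 6 lengths passed, Ncoa4 had an adjusted p of 0.20, Il6ra one of 0.051, Alas1 one of 0.13, and no call at the 10 genes changed. Il6ra also missed the threshold with calls in at least 5 libraries (0.079), and Alas1 passed at 8-fold over input (0.042), with DESeq2 (0.0013), with unshared regions (0.049) and without old replicate 1 (0.047).

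Signs of summed tags turned with no centring at Hamp (−0.14), Hfe (−0.28), Tfrc (−0.16), Slc40a1 (−0.31), Ftl1 (−0.25) and Cisd1 (−0.089), on tags per kb at Hfe (−0.013), Tfrc (−0.33), Ncoa4 (0.10), Il6ra (0.060), Aco1 (0.075) and Bdh2 (0.098), at 8-fold over input at Aco1 (0.35), with the covariate at Hfe (−0.061) and with unshared regions at Fth1 (0.059). Signs of length turned with no centring at Hfe (−0.087), Tfr2 (−0.15), Trf (−0.14), Fth1 (−0.15) and Ftl1 (−0.094), and at 8-fold over input at Slc40a1 (0.15). The upstream Fth1 region gave −0.091 on tags per kb, −0.27 with no centring, −0.11 with calls in 5 libraries and −0.14 with the covariate. Tfr2 calls differed by −0.4 at 8-fold over input. With 1 library left out, summed tags ranged from −0.15 to 0.016 at Trf, −0.055 to 0.11 at Slc40a1 and −0.13 to 0.79 at Hmox1. Lengths ranged from −0.14 to 0.16 at Tfr2, −0.013 to 0.042 at Trf, −0.22 to 0.022 at Slc40a1 and −0.083 to 0.089 at Fth1. The upstream Fth1 region ranged from −0.056 to 0.091 and Id1 calls from −0.55 to 0.1. Among the 10 genes no value could be had at 8-fold over input for Hamp, Tfr2, Id1, Tfrc, Trf and Fth1, with unshared regions for Hamp, Tfr2, Ftl1 and Ncoa4, and with a 2 kb extension for Id1. At Fth1 the setting of unshared regions left out the region over the gene, which ends within 1 kb of Best1. The value of 0.059 thus covers the upstream region alone. The cause of the other changes was not tested.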
